A study of Mus musculus with 10 samples.

Results

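Keratins are the intermediate filament proteins of epithelial cells, and the 41 keratin genes described here were followed across 10 cutaneous tumors of mice by RNA-seq. A gene was a member if its row was protein-coding, its symbol was *Krt* followed directly by a number, with or without a final letter, and its counts summed to at least 10 over the 10 tumors. Of the 35275 genes in each deposited table, 51 met the first 2 conditions and 41 met all of them. The 10 keratin genes below the count limit held 1 to 9 counts each over all tumors and were *Krt2*, *Krt26*, *Krt33b*, *Krt34*, *Krt39*, *Krt40*, *Krt74*, *Krt81*, *Krt82* and *Krt86*. *Krt2*, a keratin of the upper epidermis, summed to 3 counts, and the other 9 belong to the hair shaft or its inner root sheath.

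The tumors fell into 5 labelled LDHA-/- (here *Ldha*-null) and 5 labelled wild type, numbered 1 to 5 within each genotype, from 5 knockout and 5 wild-type mice by the design text. *Ldha* encodes the lactate dehydrogenase A subunit, which turns pyruvate into lactate. The study made squamous carcinomas by Cre recombination in hair follicle stem cells, with or without floxed *Ldha*, through K15CrePR (a mifepristone-dependent Cre driven by a keratin 15 promoter) or Lgr5CreER (tamoxifen-dependent), and also by treating skin with DMBA and TPA. Which of these models, which sex and which age the sequenced tumors came from is not given in the sources used here, and the study describes some *Ldha*-deleted tumors as mosaic. The labels name squamous carcinoma cells as the source, but the protocol takes RNA from whole fresh tumors without mention of a sort, and each value can therefore hold RNA of stroma, leukocytes, muscle and adjoining skin. *Ldha* itself had 246 to 1882 FPKM (fragments scaled to gene length and to the total of the library) among the *Ldha*-null tumors, while wild type ranged over 340 to 2824 FPKM, so its RNA level did not separate the labels. The 1882 FPKM was that of *Ldha*-null tumor 1, which held much skeletal muscle RNA (given below), and the part of muscle in it was not tested. Counts of a whole gene cannot show whether a floxed exon was lost. By western blot and activity assays, the study reported loss of Ldha protein and Ldh activity in its *Ldha*-deleted tumors. Total counts were 12969508 to 17694201 per tumor. At that depth 3 counts, the limit that a count of 0 allows, equal 0.170 to 0.231 CPM (counts scaled to the total alone).

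Keratin filaments are built from pairs of an acidic type I and a basic type II protein, and each layer of a stratified epithelium makes its own pairs. *Krt5* with *Krt14* marks the basal layer, *Krt1* with *Krt10* the differentiating layers above it, *Krt6a* or *Krt6b* with *Krt16* or *Krt17* wounded and hyperproliferative epidermis, *Krt8* with *Krt18* simple epithelia, *Krt4* with *Krt13* the mucosa of mouth and oesophagus, and a large further set the hair follicle. In squamous carcinoma of the skin, loss of the differentiation pair, gain of the wound keratins and appearance of *Krt8* and *Krt18* are familiar changes. The members comprised 23 type I and 18 type II genes. In the coordinates of the files (mm10), 22 lay on chromosome 11 between 99232761 and 100269871, all of type I, and 19 on chromosome 15 between 101349571 and 102032026. *Krt18* was the single type I gene on chromosome 15, next to its partner *Krt8*, and 39 of the 41 genes lay on the minus strand.

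Keratin RNA varied widely within each genotype. The 41 genes together took 1.42%, 0.563%, 10.3%, 0.310% and 0.549% of all counts in *Ldha*-null tumors 1 to 5, and 0.133%, 0.807%, 0.259%, 0.165% and 9.70% in wild-type tumors 1 to 5. *Ldha*-null tumor 3 and wild-type tumor 5 thus stood far above the other 8 and are called keratin-rich here, and the genotypes overlapped. The mean was 2.63 ± 1.93% (SEM, n = 5) in *Ldha*-null and 2.21 ± 1.87% (SEM, n = 5) in wild-type tumors. The 95% Wilson interval of each share reached at most 1.29% of the share to either side and covers counting error only, since reads without molecular identifiers are not independent molecules. In bulk tumors, fewer keratinocytes and less keratin RNA per keratinocyte cannot be told apart. Of 8 keratinocyte genes outside the family that were listed for comparison, none was at 0 in any tumor. Their summed FPKM was 2108 to 11758 for *Ldha*-null and 1323 to 7648 for wild type. It was again highest in *Ldha*-null tumor 3 and wild-type tumor 5 and lowest in wild-type tumor 1. As a share of counts they took 0.124% to 1.12% and 0.0723% to 1.03%. A sum follows its most abundant genes, and *Dsp* and *Trp63*, among the 8, are given singly below. *Vim*, the filament gene of mesenchymal cells, ran the other way. It had an FPKM of 869 and 1485 in the 2 keratin-rich tumors against 6043 in wild-type tumor 1. Its lowest value, 198 FPKM, was however that of *Ldha*-null tumor 1, where 8 skeletal muscle genes took 11.8% of all counts. Over 8 mesenchymal genes, *Vim* among them, the sum was 747 to 12896 FPKM for *Ldha*-null and 4884 to 14103 FPKM for wild type, lowest again in *Ldha*-null tumor 1. By the sum of 4 adipocyte genes the keratin-rich tumors again ranked first, at 1007 (*Ldha*-null) and 951 FPKM (wild type). Nearly all of it was *Fabp4*, at 1006 and 950 FPKM, while *Adipoq* was at only 0.363 and 0.656 FPKM. *Ldha*-null tumor 1 ranked next, with a sum of 794 FPKM and the highest *Adipoq*, 107 FPKM. The remaining tumors had sums of 12.2 to 165 FPKM. How much of the keratin differences these cell mixtures carry was not tested.

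**Figure D1:**
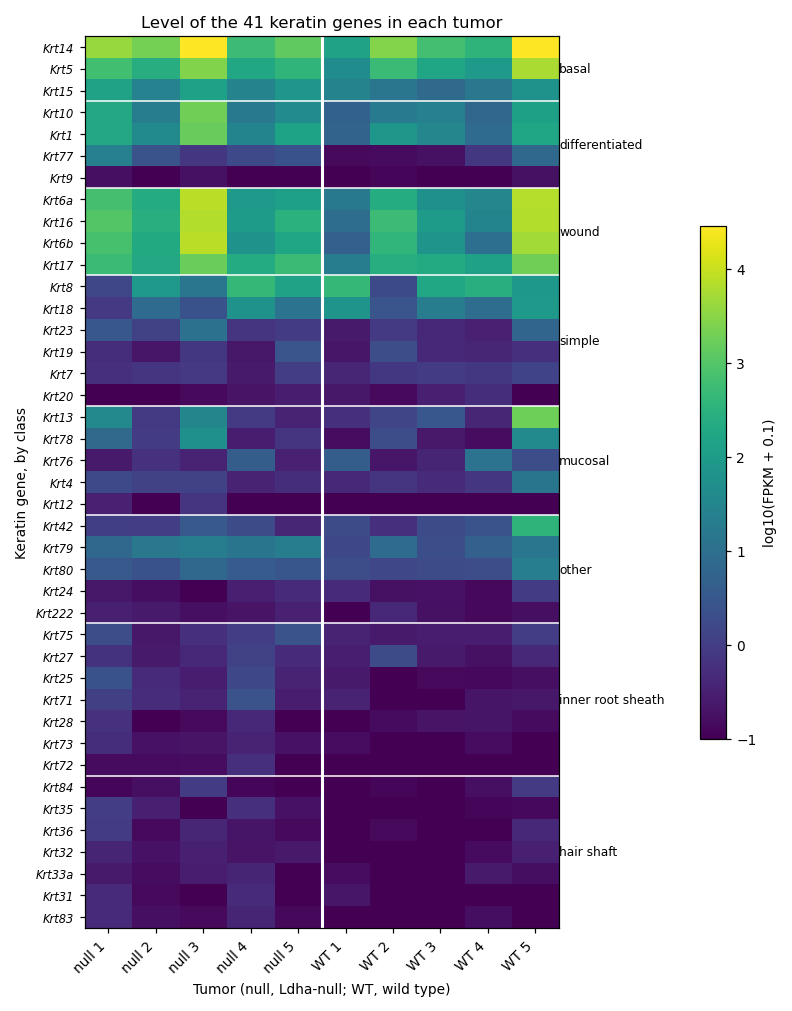
Level of the 41 keratin genes (rows, by class, ordered by mean within a class) in each of the 10 tumors (columns), as log10 of FPKM plus 0.1. *Krt14*, *Krt5* and the wound keratins are brightest in *Ldha*-null tumor 3 and wild-type tumor 5, *Krt8* and *Krt18* follow another order, *Krt13* and *Krt42* stand out in wild-type tumor 5, and the 7 hair shaft genes stay under 1 FPKM throughout.

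Few members carried most of this RNA. A mean of at least 100 FPKM over the 10 tumors was reached by 10 genes (*Krt14*, *Krt6a*, *Krt16*, *Krt6b*, *Krt5*, *Krt17*, *Krt10*, *Krt1*, *Krt13* and *Krt8*, in that order), and 21 genes had a mean under 1 FPKM. *Krt13* was among the 10 through wild-type tumor 5, with a mean of 190 and a median of 1.03 FPKM. Its listed length was 2.09 times the gene length behind its FPKM, so its place depends on that length too. In each tumor, between 6 and 9 genes made up 95% of the summed keratin FPKM. At least 1 FPKM was reached in all 10 tumors by 12 members, in some of them by 14 and in none by 15. *Krt14* led the keratins of 9 tumors, with 30.3% to 60.8% of the summed keratin FPKM. The exception was wild-type tumor 1, where *Krt8* led with 55.4% and *Krt14* followed with 17.7%.

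*Krt14*, the type I keratin of basal keratinocytes, was the most abundant member. Across *Ldha*-null tumors 1 to 5 its FPKM was 4195, 2112, 28399, 550 and 1337, and across wild-type tumors 1 to 5 it was 138, 2830, 663, 359 and 28691. The highest and lowest tumors differed 209-fold, both of them wild type. Mean FPKM was 7319 ± 5305 for *Ldha*-null and 6536 ± 5559 for wild type (SEM, n = 5 each).

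*Krt5*, its type II partner, stood at 647, 249, 2680, 189 and 368 FPKM across *Ldha*-null tumors 1 to 5, against 44.1, 528, 169, 89.3 and 5787 FPKM across the wild-type ones. It followed *Krt14* in its highest and lowest tumors, with a 131-fold range. *Krt15*, a type I keratin of basal cells and of the follicle's stem cell region, stood at 140.0, 26.3, 136, 27.6 and 74.3 FPKM across the *Ldha*-null tumors, against 27.7, 13.7, 7.55, 15.3 and 61.2 FPKM across the wild-type ones. Its range of 18.5-fold was narrower than that of the basal pair, and its highest value was not in a keratin-rich tumor but in *Ldha*-null tumor 1. The basal class, these 3 genes, held 26.9% of the keratin FPKM in wild-type tumor 1 and 42.2% to 68.7% in the other 9.

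The stretch upstream of *Krt5* is shown because it belongs to the basal pair, which, like other pairs, was present in every tumor. It runs on the minus strand of GRCm38.p6 (the build also called mm10) at chr15:101712876-101713155, from 250 bases before to 30 bases after the start annotated by RefSeq, and is written 5′ to 3′.
*Krt5*: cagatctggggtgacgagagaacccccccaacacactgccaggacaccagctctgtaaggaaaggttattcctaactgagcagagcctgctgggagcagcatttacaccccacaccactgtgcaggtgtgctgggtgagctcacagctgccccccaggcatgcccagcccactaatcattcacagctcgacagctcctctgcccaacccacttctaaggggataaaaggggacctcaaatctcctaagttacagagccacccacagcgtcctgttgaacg
On both strands, within 250 bases before and 50 after a start, 3 motifs were searched. The letters TATAAA stand for the box that binds the TATA-binding protein. For the AP-1 family of leucine zipper factors the site was taken as TGANTCA. The zinc finger factor Sp1 was represented by GGGCGG. A RefSeq promoter was at hand for 28 members, with 29 starts. *Krt5* holds none of the 3 motifs in that window, and no capitals appear in its sequence. TATAAA was present at 15 of the 29 keratin starts (51.7%) against 13.6% of 32851 mouse promoters, GGGCGG at 2 (6.90%) against 35.7%, and TGANTCA at 2 (6.90%) against 7.81%. Of the 29 starts, 24 lay within 50 bases of the gene's 5′ end in the deposited tables. That of *Krt14* lay 1518 bases inside the deposited gene, so its window is not shown, and none of the 4 wound keratins had one.

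The wound keratins formed the next largest class. *Krt6a* (type II) stood at 712, 228, 7937, 90.6 and 118 FPKM across *Ldha*-null tumors 1 to 5, against 16.3, 234, 55.1, 32.7 and 6986 FPKM across the wild-type ones. *Krt16*, a type I partner, stood at 988, 276, 6808, 102 and 306 FPKM across the *Ldha*-null tumors, against 8.96, 552, 100.01, 28.6 and 6818 FPKM across the wild-type ones. Both were at nearly equal heights in the 2 keratin-rich tumors, of opposite genotype, and lowest in wild-type tumor 1. *Krt6b* stood at 741, 209, 7926, 62.6 and 163 FPKM across the *Ldha*-null tumors, against 4.62, 384, 66.7, 9.95 and 5056 FPKM across the wild-type ones, and its 1714-fold range was the widest of the 4. *Krt17*, also made by the outer follicle, stood at 524, 199, 1733, 225 and 520 FPKM across the *Ldha*-null tumors, against 19.7, 251, 215, 131 and 1912 FPKM across the wild-type ones, a narrower range of 96.9-fold. Together the 4 genes held 6.38% of the keratin FPKM in wild-type tumor 1 and 20.6% to 41.2% in the other 9.

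Levels of close copies are uncertain. Of all 50-base stretches of *Krt6a* transcripts, 40.2% occur also in *Krt6b*, and 57.2% in some other gene. For *Krt16* the share was 37.6%, of which the pseudogene *Gm11597* accounted for most, and for *Krt8* 29.7%, mostly from the pseudogene *Krt8-ps*. The share was 13.9% for *Krt14*, 3.99% for *Krt17*, 0.234% for *Krt42* and 0 for *Krt1*. How reads with several alignments were treated is not given in the sources used here.

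*Krt1* and *Krt10*, the pair of differentiating keratinocytes, separated the 2 keratin-rich tumors. *Krt10* (type I) stood at 192, 19.4, 1903, 15.7 and 42.3 FPKM across *Ldha*-null tumors 1 to 5, against 4.80, 19.0, 23.5, 6.37 and 126 FPKM across the wild-type ones. *Krt1* (type II) stood at 193, 38.0, 1518, 29.2 and 150 FPKM across the *Ldha*-null tumors, against 5.40, 77.8, 33.2, 8.09 and 165 FPKM across the wild-type ones. *Ldha*-null tumor 3 was therefore 9.91-fold above the next tumor for *Krt10* and 7.86-fold for *Krt1*, whereas it was level with wild-type tumor 5 for *Krt14*, *Krt6a* and *Krt16*. *Flg*, whose product bundles keratin filaments in the granular layer, likewise reached 810 FPKM in *Ldha*-null tumor 3 but 56.4 FPKM in wild-type tumor 5. The differentiated class took 0.513% of keratin FPKM in wild-type tumor 5, its lowest share, and 5.95% in *Ldha*-null tumor 5, its highest. Of its other members, *Krt77*, a keratin of sweat ducts and embryonic epidermis named here after its values were seen, reached 23.5 FPKM in *Ldha*-null tumor 1 and at most 6.65 FPKM elsewhere, and *Krt9*, the keratin of palms and soles, reached at most 0.0776 FPKM. *Ldha*-null tumor 1 was also the tumor with skeletal muscle RNA, 105715 FPKM over 8 listed genes against 50.1 to 251 FPKM in the others.

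**Figure D2:**
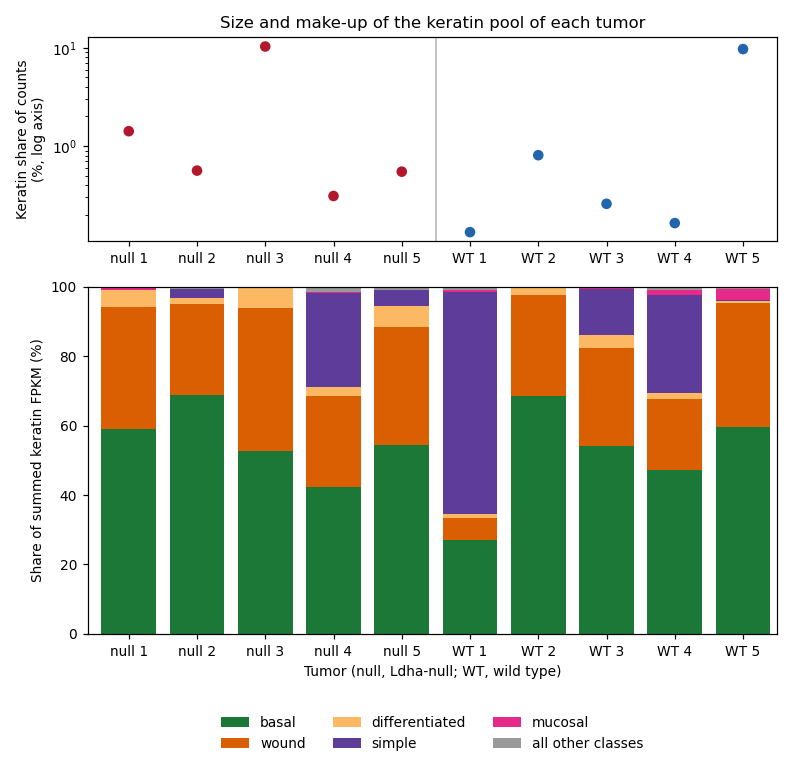
Upper panel, share of all counts taken by the 41 keratin genes in each tumor (percent, log axis; red, *Ldha*-null; blue, wild type). Lower panel, share of each class in the summed keratin FPKM of the tumor (percent): wild-type tumor 1 is filled to 64.0% by simple keratins, while basal and wound classes hold most of the pool in the other 9.

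*Krt8* and *Krt18*, the pair of simple epithelia, followed an order of their own. *Krt8* (type II) stood at 1.34, 83.4, 14.0, 425 and 140 FPKM across *Ldha*-null tumors 1 to 5, against 431, 1.62, 184, 269 and 81.2 FPKM across the wild-type ones. Wild-type tumor 1, lowest in *Krt14* and *Krt5*, had the highest *Krt8*, and the tumors lowest in *Krt8*, *Ldha*-null tumor 1 and wild-type tumor 2, ranked next in *Krt14* after the keratin-rich tumors. *Krt18* (type I) stood at 0.698, 8.03, 2.33, 64.4 and 12.1 FPKM across the *Ldha*-null tumors, against 65.7, 2.68, 19.4, 8.68 and 83.6 FPKM across the wild-type ones. The range was 322-fold for *Krt8* and 120-fold for *Krt18*, and both genotypes spanned most of it. Simple keratins took 64.0% of keratin FPKM in wild-type tumor 1, 28.4% in wild-type tumor 4, 27.0% in *Ldha*-null tumor 4 and 13.3% in wild-type tumor 3. In the other 6 tumors they took 0.0479% to 4.79%. Wild-type tumor 5 was among these, at 0.297%, although its *Krt18* was the highest of all 10 tumors in FPKM.

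The remaining simple keratins were scarce. *Krt7* stood at 0.456, 0.565, 0.689, 0.147 and 0.887 FPKM across the *Ldha*-null tumors, against 0.284, 0.665, 0.847, 0.655 and 1.14 FPKM across the wild-type ones. *Krt19*, which usually accompanies *Krt8* in ducts and gut and marks follicle stem cells, stood at 0.410, 0.118, 0.677, 0.123 and 2.59 FPKM across the *Ldha*-null tumors, against 0.118, 1.94, 0.314, 0.288 and 0.476 FPKM across the wild-type ones, from 2 to 42 counts. Neither gene was highest in the tumors richest in *Krt8*. *Krt23*, named after its values were seen, reached 10.6 FPKM in *Ldha*-null tumor 3, and *Krt20*, a keratin of gut and Merkel cells, at most 0.411 FPKM.

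The upstream stretch of *Krt8* is shown for comparison with that of *Krt5*, since these type II genes of the same chromosome differed in their order across tumors. It lies on the minus strand of GRCm38.p6 at chr15:102004313-102004592, over the same span around the RefSeq start, with the TATAAA matches in capitals.
*Krt8*: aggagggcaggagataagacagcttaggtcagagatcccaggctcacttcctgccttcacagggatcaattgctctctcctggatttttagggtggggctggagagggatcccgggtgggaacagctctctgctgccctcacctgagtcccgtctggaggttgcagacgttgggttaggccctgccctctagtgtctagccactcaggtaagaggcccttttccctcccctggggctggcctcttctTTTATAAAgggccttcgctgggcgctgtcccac
The motif matched on both strands, at -3 to 3 and at -1 to 5 from the start, and these matches overlap, since the stretch in capitals reads the same on each strand. TATAAA was thus found in the *Krt8* window and not in that of *Krt5*, which describes the letters and says nothing of a factor. Only exact letters were searched, so the near match gataaaa in the *Krt5* stretch was not marked.

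**Figure D3:**
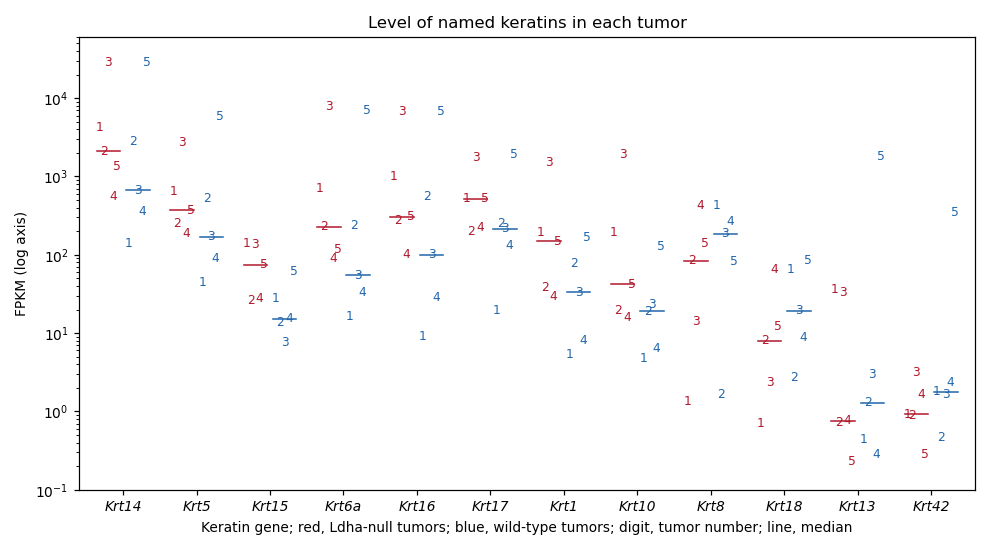
Level of 12 named keratins in each tumor, in FPKM on a log axis, with *Ldha*-null tumors in red, wild-type tumors in blue, digits for tumor numbers and lines for group medians. *Ldha*-null tumor 3 and wild-type tumor 5 top *Krt14*, *Krt5* and the wound genes, wild-type tumor 1 moves from the bottom for *Krt14* (138 FPKM) to the top for *Krt8* (431 FPKM), and wild-type tumor 5 stands alone for *Krt13* and *Krt42*.

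In the mucosal class, *Krt13* and *Krt4* were by far highest in a single tumor. *Krt13*, the type I keratin of the upper layers of oral and oesophageal mucosa, stood at 36.1, 0.732, 32.7, 0.762 and 0.230 FPKM across *Ldha*-null tumors 1 to 5, against 0.441, 1.29, 2.92, 0.286 and 1821 FPKM across the wild-type ones. Wild-type tumor 5 was 50.4-fold above the next tumor and held 95.7% of all *Krt13* counts. *Krt4*, its type II partner, stood at 1.54, 1.09, 1.03, 0.226 and 0.426 FPKM across the *Ldha*-null tumors, against 0.300, 0.607, 0.362, 0.636 and 13.4 FPKM across the wild-type ones, 8.74-fold above the next in wild-type tumor 5. *Krt42*, a type I gene at the end of the chromosome 11 group beside *Krt17*, stood at 0.927, 0.890, 3.16, 1.67 and 0.279 FPKM across the *Ldha*-null tumors, against 1.79, 0.471, 1.66, 2.34 and 348 FPKM across the wild-type ones. Again wild-type tumor 5 stood apart, 110-fold above the next, although *Krt17*, its neighbor, was about as high in *Ldha*-null tumor 3. Of the genes listed for oral and oesophageal epithelium, *Sprr3* was at 79.5 FPKM and *Pitx1*, also a factor of the hindlimb, at 636 FPKM in wild-type tumor 5, against at most 2.39 and 39.2 FPKM in the others, while *Pax9* was at 3.08 FPKM against at most 1.66 FPKM. Where in the body each tumor grew is not given in the sources used here, and the part of the site in these values was not tested.

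The *Krt13* stretch is shown because this gene was high in 1 tumor alone. It lies on the minus strand of GRCm38.p6 at chr11:100121537-100121816 around the outermost RefSeq start, with the TGANTCA match in capitals.
*Krt13*: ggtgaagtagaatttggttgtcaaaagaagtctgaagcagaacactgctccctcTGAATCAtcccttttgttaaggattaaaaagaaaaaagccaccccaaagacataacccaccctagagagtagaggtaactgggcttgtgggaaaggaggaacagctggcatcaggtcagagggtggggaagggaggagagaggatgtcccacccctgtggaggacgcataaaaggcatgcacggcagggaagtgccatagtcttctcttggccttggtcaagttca
The match lay at -196 to -190 from the start, fits the motif on both strands, and both keratin starts with this motif belong to *Krt13*, whose other start lies 989 bases inside the deposited gene.

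*Krt76*, a type II keratin of the hard palate and oral mucosa, stood at 0.149, 0.501, 0.230, 4.01 and 0.210 FPKM across the *Ldha*-null tumors, against 3.87, 0.118, 0.267, 11.9 and 1.82 FPKM across the wild-type ones. It was highest in wild-type tumor 4, *Ldha*-null tumor 4 and wild-type tumor 1, the 3 tumors with the largest share of simple keratins. *Krt78*, named after its values were seen, had its highest FPKM, 55.8 and 39.4, in the keratin-rich tumors, and *Krt12*, the corneal keratin, was at 0 in 8 tumors.

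Hair keratins were nearly silent. None of the 7 hair shaft members reached 1 FPKM in any tumor, and together they held 259 counts over all 10. *Krt84*, the highest of them by mean, stood at 0.0224, 0.0676, 0.801, 0.0234 and 0 FPKM across the *Ldha*-null tumors, against 0, 0.0265, 0, 0.0660 and 0.753 FPKM across the wild-type ones, from at most 31 counts. Of the 7 inner root sheath and companion layer members, 4 reached 1 FPKM in some tumor, and the highest value of the class was 2.43 FPKM, that of *Krt71* in *Ldha*-null tumor 4. *Krt75*, the companion layer keratin, led the class at 1.88, 0.124, 0.447, 0.867 and 2.39 FPKM across the *Ldha*-null tumors, against 0.231, 0.146, 0.165, 0.173 and 0.878 FPKM across the wild-type ones. Of the hair follicle genes listed outside the family, *Krtap3-1* was at 0 in 8 tumors and *Hoxc13*, which drives hair keratin genes, reached at most 1.35 FPKM. *Tchh*, whose product binds keratins of the inner root sheath, was in every tumor, at 12.9 FPKM in wild-type tumor 1 and 0.834 to 4.41 FPKM elsewhere.

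Of the 5 members in none of these classes, *Krt42* is given above. *Krt79*, a keratin of the follicle's upper funnel and named after its values were seen, stood at 6.85, 15.1, 20.7, 13.1 and 19.3 FPKM across the *Ldha*-null tumors, against 1.44, 8.18, 1.95, 4.58 and 14.1 FPKM across the wild-type ones. Every tumor expressed it, over a range of 14.3-fold. *Krt80* reached 21.5 FPKM in wild-type tumor 5 and stayed at 1.34 to 6.44 FPKM in the others, and *Krt24* and *Krt222* stayed under 1 FPKM.

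*Krt5* with *Krt14*, *Krt1* with *Krt10* and *Krt6a* with *Krt16* were steadier against each other than each gene was across tumors. The log2 ratio of *Krt5* to *Krt14* in FPKM lay between -3.41 and -1.54 (median -2.16) in all 10 tumors. That of *Krt1* to *Krt10* lay between -0.33 and 2.04 (median 0.45), and that of *Krt6a* to *Krt16* between -1.38 and 0.87 (median -0.22). Each of these pairs thus kept its ratio within a span of 2.36 on the log2 scale. *Krt6a* to *Krt17* spread more widely, from -2.14 in *Ldha*-null tumor 5 to 2.20 in *Ldha*-null tumor 3. *Krt8* to *Krt18* was the loosest pair of those measured in all 10 tumors, with a median of 2.72, a lowest value of -0.72 in wild-type tumor 2 and a highest of 4.95 in wild-type tumor 4, where *Krt8* stood 31.0-fold above *Krt18*. In wild-type tumor 5 the 2 genes were level, at -0.04.

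*Krt4* to *Krt13* could be measured with at least 10 counts of both genes in 6 tumors and ran from 0.57 in *Ldha*-null tumor 2 down to -7.08 in wild-type tumor 5. By listed gene lengths the same tumors were at 1.63 and -6.02. *Krt7* to *Krt19* had such counts in 3 tumors, at -1.55, -1.55 and 0.03. Ratios across pairs could be as narrow or wider still. *Krt16* to *Krt14*, both type I and added after the values were seen, lay between -3.94 and -2.06. Its span of 1.88 was close to the 1.86 of *Krt5* to *Krt14*, so a narrow span was not particular to partners. *Krt8* to *Krt5*, a ratio added after the values were seen, ran from -8.92 in *Ldha*-null tumor 1 to 3.29 in wild-type tumor 1. *Krt6a* to *Krt6b*, added likewise, was 1.82 in wild-type tumor 1 and 1.72 in wild-type tumor 4 and lay between -0.71 and 0.53 in the other 8. Type I genes held 54.6% to 76.1% of keratin FPKM in the *Ldha*-null tumors. In the wild-type tumors they held 34.4% in wild-type tumor 1, where type II outweighed type I, and 56.3% to 74.8% in the others.

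**Figure D4:**
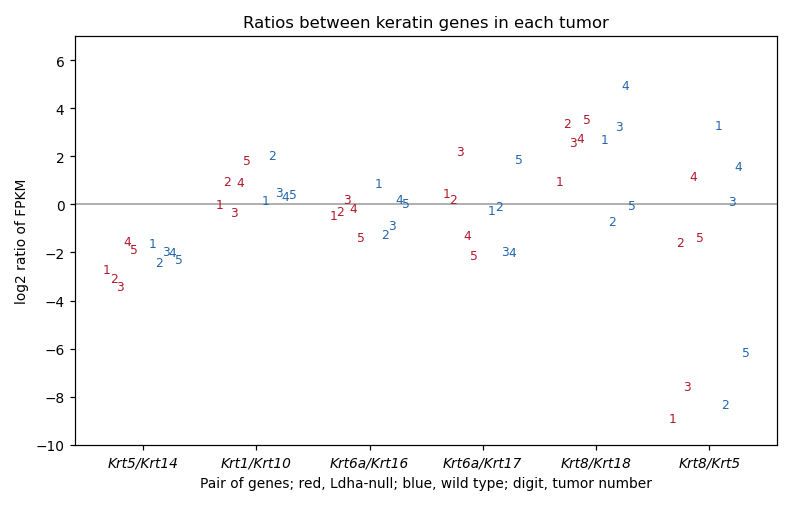
Log2 ratio of FPKM between keratin genes in each tumor (red, *Ldha*-null; blue, wild type; digits, tumor numbers; grey line, equal levels). *Krt5* to *Krt14* stays between -3.41 and -1.54, *Krt8* to *Krt18* spreads from -0.72 to 4.95, and *Krt8* to *Krt5*, which belong to different pairs, from -8.92 to 3.29.

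The design compares tumors without and with *Ldha*, and no keratin passed the test between them. Of the 41 members, 22 had enough counts to be tested, and 0 were called at an adjusted p under 0.05 by edgeR's quasi-likelihood test, as were 0 of all 15176 genes tested (0%). At an unadjusted p under 0.05 stood 6 of the 22 keratins, 5 higher in *Ldha*-null tumors (*Krt15*, *Krt10*, *Krt75*, *Krt79* and *Krt1*) and 1 lower (*Krt42*), beside 3.96% of all genes, which amounts to 601. DESeq2, run as an alternative, called 0 keratins and 1 gene in all, with 5 keratins at an unadjusted p under 0.05. The *Ldha*-null and wild-type tumors did not overlap in log2 CPM for 0 of the 22 keratins, against 0.185% of all genes. The log2 fold change of *Ldha*-null over wild type was positive for 13 and negative for 9 keratins, with a median of 0.41 against 0.02 over all genes.

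*Krt15* was the type I basal gene with the clearest offset, with mean FPKM of 80.8 ± 24.8 for *Ldha*-null and 25.1 ± 9.60 for wild type (SEM, n = 5 each), and the tumors of both genotypes overlapped. Its log2 fold change was 2.04 ± 0.78 (SE), with an adjusted p of 0.999 by edgeR and an exact two-sided permutation p of 0.0794. The basal pair showed no such offset. *Krt14* had a log2 fold change of 0.34 ± 1.51 and *Krt5* one of -0.50 ± 1.34, with exact permutation p-values of 0.444 and 0.548. Neither sign was stable. *Krt14* was at -1.34 without *Ldha*-null tumor 3, and *Krt5* at 2.41 without wild-type tumor 5. The 95% interval for *Krt14* reached from -2.99 to 3.68, so neither a large rise nor a large fall can be told from no difference.

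For the differentiation pair the offset rested on few tumors. *Krt10* had a log2 fold change of 3.81 ± 1.57 and *Krt1* one of 2.96 ± 1.32, with exact permutation p-values of 0.190 and 0.151 and an adjusted p of 0.999 by edgeR for both. Without *Ldha*-null tumor 3 the fold changes were 1.45 and 1.17, and with another single tumor left out they reached up to 5.44 and 4.05. All 4 wound keratins had positive fold changes, 0.36 ± 1.68 for *Krt16*, 0.47 ± 1.79 for *Krt6a*, 0.51 ± 1.08 for *Krt17* and 0.89 ± 1.83 for *Krt6b*. Each turned negative without *Ldha*-null tumor 3, between -1.94 for *Krt6a* and -0.27 for *Krt17*. They moved further the other way when another single tumor was left out. The highest values so reached were 2.41 for *Krt17*, 3.75 for *Krt16*, 4.42 for *Krt6b* and 4.86 for *Krt6a*. The simple pair had fold changes of -0.60 ± 1.24 for *Krt8* and -1.14 ± 1.10 for *Krt18*, and *Krt7* was at -0.23 ± 0.53.

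The negative fold changes of *Krt42*, *Krt13* and *Krt4*, like that of *Krt5*, rested on wild-type tumor 5. *Krt42* had a log2 fold change of -5.60 ± 1.94, with an adjusted p of 0.999 by edgeR and an exact permutation p of 0.429, and 0.08 without that tumor. *Krt13* was at -4.26 ± 2.54, and at 4.16 without it, and *Krt4* at -1.58 ± 1.19, and at 1.24 without it. *Krt76* stood at -1.84 ± 1.23. *Krt75* had a log2 fold change of 2.06 ± 0.87 and an exact permutation p of 0.127. *Krt79* was higher in *Ldha*-null tumors by 1.38 ± 0.60, with means of 15.02 ± 2.46 and 6.04 ± 2.33 FPKM and the smallest exact permutation p of the keratins named, 0.0317, but its adjusted p by edgeR was 0.999 and the genotypes overlapped. In a design of 5 against 5 tumors the smallest p this permutation test can give is 0.00794.

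**Figure D5:**
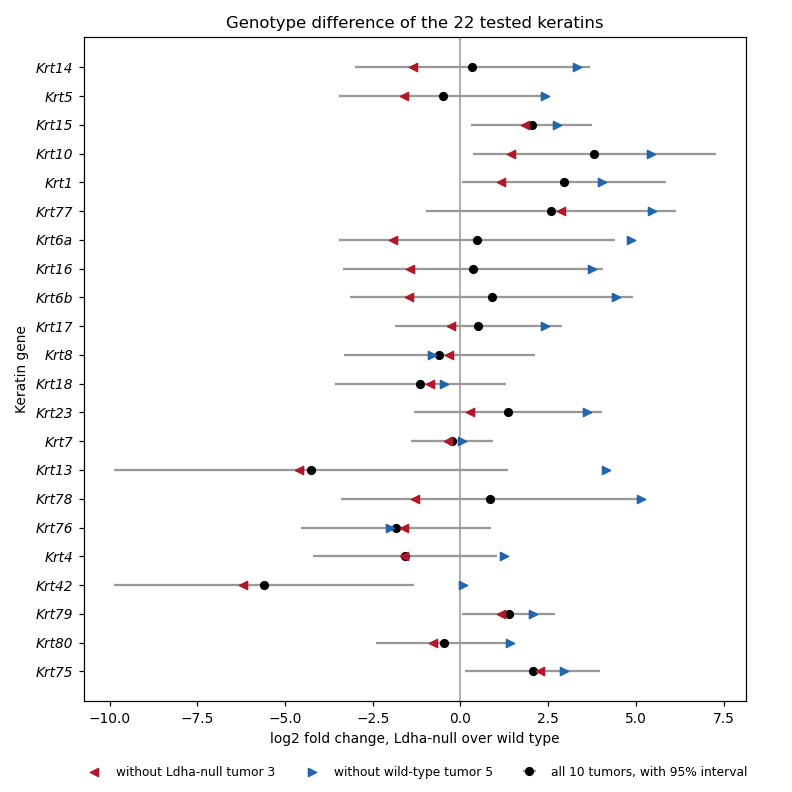
Log2 fold change of *Ldha*-null over wild type for the 22 tested keratins (black points, with 95% intervals from edgeR), by class, and the same value without *Ldha*-null tumor 3 (red) or without wild-type tumor 5 (blue). Every interval covers over 4-fold, and leaving out wild-type tumor 5 moves *Krt13* from -4.26 to 4.16, while leaving out *Ldha*-null tumor 3 moves *Krt6a* from 0.47 to -1.94.

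Keratins varied more between tumors than most genes did. The standard deviation of log2 CPM over the 10 tumors had a median of 2.40 for the tested keratins and 0.64 for all tested genes. The 95% interval of the log2 fold change had a median width of 5.64 for keratins against 1.802 for all genes. All 22 keratin intervals covered more than 4-fold between their ends, and 0 lay wholly within 2-fold of no change.

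Genes that anchor or regulate keratin filaments were not called either. Of 19 genes of desmosomes, hemidesmosomes and their linkers, 18 were tested, 4 with a positive and 14 with a negative fold change, and 0 passed at an unadjusted p under 0.05. *Dsp*, which ties keratins to desmosomes, had an FPKM of 238 in *Ldha*-null tumor 3, of 359 in wild-type tumor 5 and of 1.74 in wild-type tumor 1, the same highest and lowest tumors as for *Krt5*. *Plec*, a linker of keratins and vimentin alike, ran otherwise, with its highest level of 481 FPKM in wild-type tumor 4 and its lowest of 66.3 FPKM in *Ldha*-null tumor 3. Of 10 regulators, 5 had positive and 5 negative fold changes. *Trp63*, the master factor of stratified epithelium, had an FPKM of 70.6 and 65.7 in the keratin-rich tumors, of 1.06 in wild-type tumor 1 and of 1.79 to 13.4 elsewhere. Of 4 genes whose products bundle or bind keratins, 3 had positive fold changes, 1 at an unadjusted p under 0.05. Of 9 other intermediate filament and lamin genes, 8 were tested and 2 stood at an unadjusted p under 0.05, *Des* and *Synm* of muscle, both highest in *Ldha*-null tumor 1 at 3001 and 100.06 FPKM.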

How the data were processed

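RNA of whole tumors was enriched for poly(A) on oligo(dT) beads and sequenced on a HiSeq2500, with base calling by CASAVA 1.8. Reads were aligned to mm10 with TopHat2 by the authors and assigned to genes with HTSeq (union mode), and the resulting counts are deposited as whole numbers. The deposited FPKM values are the authors' own. The length behind FPKM equalled the listed gene length within 1% for 29 of the 37 members checked and was the same in every tumor; for *Krt7* the listed length was 2.50 times that length, for *Krt13* 2.09 times and for *Krt14* 1.20 times. For versions of TopHat2 and HTSeq, the annotation release and strand, the sources used here say nothing, so overlapping antisense genes cannot be separated.

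All 10 tumors were mapped by their labels, with 0 columns unmapped. Within a genotype no libraries were duplicates: any pair of them differed by 87.5 to 880 times the sampling noise (chi-square per degree of freedom over genes). Members, classes, gene lists and tests were chosen with earlier results of these data known. Values were printed for members with a mean of at least 100 FPKM, for partner genes and for the top member of each class; fold changes also for the 3 tested members with the smallest unadjusted p in each direction. Any further gene was named after its values were seen, some of them only to account for every member.

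Counts were tested over the whole table in R 4.3.3 with edgeR 4.0.16: filterByExpr (minimum count 10, minimum total 15), TMM scaling, quasi-likelihood F-test with no covariate, Benjamini-Hochberg adjustment over 15176 genes and a threshold of 0.05. Errors of fold changes are quasi-likelihood standard errors, with 95% intervals. The exact permutation test compared TMM-scaled log2 CPM (prior count 2) over 252 assignments. Alternatives were RLE and upper-quartile factors, no filter, a mean CPM of at least 5, DESeq2 1.42.0, limma-voom and limma 3.58.1 on log2(FPKM + 0.1) and log2(FPKM + 1), the tumor number as a block and leaving out each tumor. The edgeR script was tested on simulated counts. Shared 50-base stretches were counted on both strands of GENCODE M21 transcripts, and promoters came from RefSeq (GRCm38.p6). Protein sequences, reads and isoforms were not analysed here. The full set of alleles of the tumor models is not reported here.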

Additional observations from a re-analysis of the deposited data

Results flagged for a closer look

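Of 40 sets of 5 tumors looked at (18 keratins tested and named, the keratin share of counts and the type I share, in each genotype), 6 held a tumor whose distance to the nearest other, over the range of the 5, was above the Dixon limit of 0.71. Chance alone flags about 1 in 20 when sets are independent and chosen beforehand. These sets shared tumors, and some of their genes were named for small p-values or after their values were seen. That rate is therefore no yardstick for the 6. Genes were judged on log2 CPM. In 4 of the 6 the tumor was wild-type tumor 5. It held 1821 FPKM of *Krt13* (0.286 to 2.92 FPKM in the other wild-type tumors), 13.4 FPKM of *Krt4* (0.300 to 0.636 FPKM), 348 FPKM of *Krt42* (0.471 to 2.34 FPKM) and 0.878 FPKM of *Krt75* (0.146 to 0.231 FPKM). Wild-type tumor 2 lay below its group for *Krt8*, at 1.62 FPKM against 81.2 to 431 FPKM. *Ldha*-null tumor 4 lay below its group for *Krt7*, at 0.147 FPKM, from 4 counts, against 0.456 to 0.887 FPKM. The keratin share of counts was not among the 6, since on the log scale the keratin-rich tumors lay within that limit.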

How the results depend on the processing

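No keratin was called under any of the 21 alternatives, where the smallest adjusted p of a keratin was 0.705, and over all genes DESeq2 alone called any, 1. The number of keratins at an unadjusted p under 0.05, 6 as reported, was 13 of 41 with no filter on low counts, 3 with limma on log2(FPKM + 0.1), 2 with limma on log2(FPKM + 1), and 1 to 16 when tumors were left out in turn: 3 without *Ldha*-null tumor 1, 2 without *Ldha*-null tumor 3 or wild-type tumor 1, 1 without wild-type tumor 2, 3 or 4, and 16 without wild-type tumor 5. The median log2 fold change of the tested keratins, 0.41, ran from -0.83 without *Ldha*-null tumor 3 to 2.85 without wild-type tumor 5, and the cause was not tested. With both left out, an alternative chosen after seeing the data, it was 1.85, with 7 keratins at that p, and with *Ldha*-null tumor 1 left out as well, 0.37 and 4. The tumor number as a replicate block gave 3 keratins and a median of 1.62. The study speaks of littermate pairs, but whether same-numbered tumors were pairs is not given in the sources used here. Their deviations from the genotype means correlated at -0.04, 0.06, -0.27, 0.55 and -0.51. Such correlations cannot show whether the tumors were paired.

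Of 375 fold changes of 18 keratins under alternatives, 24 changed sign, in 12 genes, none of them called. Among them, *Krt5* turned positive with the replicate block (1.14), limma-voom (1.06) and limma on log2(FPKM + 0.1) (0.77). *Krt15*, *Krt10*, *Krt1*, *Krt75* and *Krt79* stayed positive with any 1 tumor left out, *Krt15* between 1.43 and 2.75. From counts with no length, the type I share had a mean of 58.9% in *Ldha*-null tumors in place of 67.8%. Class shares, other type I means and partner medians moved by less than their spread between tumors, and the leading keratin was the same in all 10 tumors from counts or listed lengths. Depth limits the hair keratins and *Krt19*, from a few counts a tumor.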
